A study of Mus musculus with 10 samples.

Results

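The genes of lipid droplet proteins and of the lipolysis that empties the droplets were followed in cultured mouse hepatocytes. The set was given by name and holds 10 genes of the 18055 listed in at least 1 library. It has 4 perilipins (Plin2, Plin3, Plin4, Plin5), the 3 CIDE genes (Cidea, Cideb, Cidec), the droplet assembly gene Fitm2, the lipase gene Pnpla2 and the gene of its inhibitor, G0s2. All 10 were found by NCBI gene identifier, and all 10 passed the filter on low counts. The study exposed primary hepatocytes of C57BL/6 mice to a free fatty acid (FFA) for 24 h and asked what pretreatment with Neurotropin (NTP) changed. NTP is in clinical use against pain. RNA sequencing was done on 5 groups of 2 libraries each. Vehicle cells had neither FFA nor NTP, PA cells had 200 µM palmitic acid, and LA cells had 12 µM linoleic acid. PA+NTP and LA+NTP cells were given NTP at 0.4 NU/mL, starting 1 h ahead of the same dose of palmitic or linoleic acid. The labels give DMEM with 10% FBS as the growth medium of all groups, and the study's methods describe a change to DMEM without serum before treatment. Nothing in the labels says that the libraries of a group came from separate cultures, so the p-values measure the spread between libraries, which may be technical.

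Hepatocytes store triglyceride in droplets that bud from the endoplasmic reticulum, bounded by a single layer of phospholipid and coated with proteins. Perilipins sit on that surface and shield the core from lipases, CIDE proteins enlarge droplets by passing lipid between them or onto nascent lipoproteins, and FITM2 acts where droplets form. Adipose triglyceride lipase, the product of Pnpla2, takes the initial fatty acid off a triglyceride, and the small protein G0S2 binds and inhibits it.

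Summed expected counts per library were 18795990 and 26900384 for Vehicle, 13142588 and 39052570 for PA, 30743849 and 31901493 for PA+NTP, 32312383 and 23696170 for LA, and 35959385 and 60046937 for LA+NTP. The deepest library held 4.569 times the counts of the shallowest. After a filter on low counts 14097 genes were tested by the quasi-likelihood method of edgeR. Genes counted as called had a p under 0.05 after Benjamini-Hochberg adjustment and a fold change of at least 1.5. A range after an adjusted p covers the alternative analyses, 21 in number for most genes. The libraries also differed by base composition. Across 14015 tested genes, which are not independent replicates, each library's departure from the mean level of a gene was correlated with the GC content of its transcripts. Spearman's rho was 0.422 and 0.386 in Vehicle, -0.469 and -0.479 in PA, 0.404 and 0.343 in PA+NTP, -0.568 and -0.562 in LA, and 0.57 and 0.531 in LA+NTP. The sign was the same in both libraries of a group, so treatment and this trend cannot be told apart in PA or LA against the other groups. For that reason changes are also given after a smooth trend on GC content was removed from every library.

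**Figure D1:**
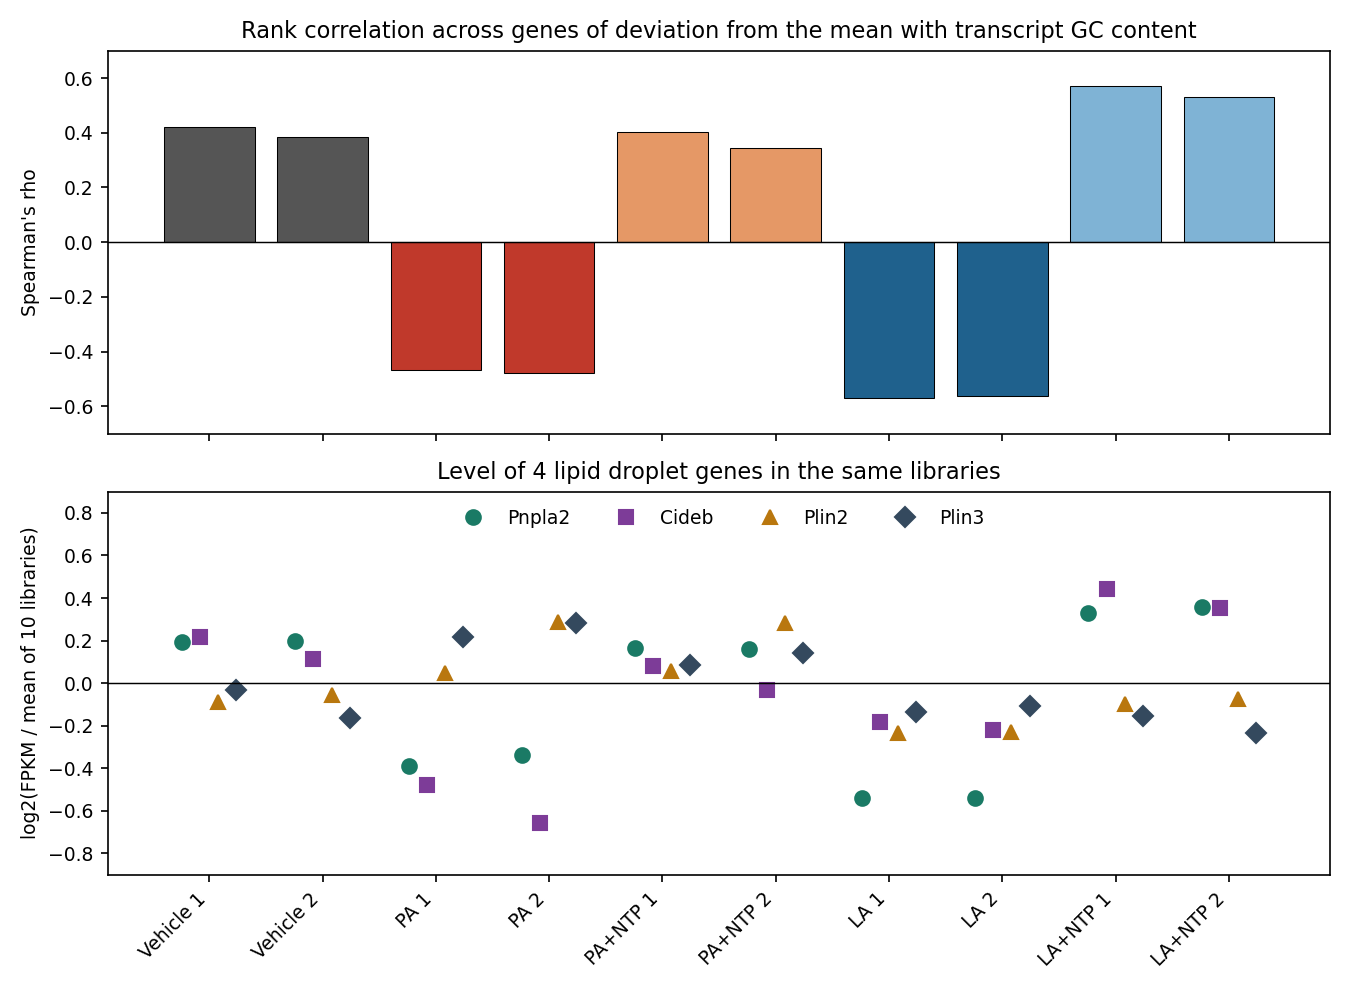
Upper panel: Spearman's rho, across genes, of the deviation from the mean with transcript GC content, 1 bar a library. Lower panel: log2 of FPKM over its mean in the 10 libraries for Pnpla2, Cideb, Plin2 and Plin3; rho was negative in the 4 PA and LA libraries, where Pnpla2 was lowest.

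All 10 hepatocyte markers were listed, with Alb the most abundant at FPKM 1929 to 2818. Others of that list were low, with Cps1 at 1.52 to 4.61 and Tat at 3.64 to 8.51. The macrophage marker Cd68 (121.56 to 287.31) and the cholangiocyte marker Spp1 (398.44 to 691.40) lay above Cps1 and Tat. They were the most abundant of their lists. On the same lists Clec4f, Vsig4, Timd4, Csf1r, Krt19, Krt7, Epcam and Cftr were under FPKM 1 in every library. Without Cd68 the macrophage markers summed to 4.86 to 9.55, and without Spp1 the cholangiocyte markers to 7.68 to 14.64. The summed FPKM of the 10 hepatocyte markers was 4856 and 4621 in Vehicle, 3799 and 3461 in PA, 4510 and 3914 in PA+NTP, 4793 and 4736 in LA, and 5476 and 5242 in LA+NTP. Adipocytes are the cells from which several of these droplet proteins are best known. Of 7 adipocyte markers, Adipoq, Lep, Plin1 and Retn were listed in no library, Cfd stayed under FPKM 1 everywhere, and Fabp4 was the most abundant at 3.82 to 8.91. The summed adipocyte FPKM lay between 6.24 in a PA+NTP library and 11.32 in a Vehicle library.

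Levels within the set spanned a wide range on the FPKM scale, which is per length of transcript. Plin2 led with a mean FPKM of 484.5 over the 10 libraries, rank 163 of 18055 genes. Cideb (62.5, rank 1241) and Plin3 (58.5, rank 1314) followed, and their libraries overlapped each other. Pnpla2 came next at 28.6 (rank 2759) and Fitm2 at 9.28 (rank 6370). G0s2 averaged 4.11, Plin5 2.62, Cidec 1.27, Plin4 0.999 and Cidea 0.291. In every library Plin2 made up 87.5% to 89.7% of the summed FPKM of the 4 perilipins, and Cideb 96.5% to 98.4% of that of the 3 CIDE genes. These cells thus carried mainly PLIN2 and CIDEB transcripts of their families, and the genes best known from adipocytes were near the bottom of the order. Cidea rested on 3 to 17 expected counts a library, Cidec on 32 to 117, G0s2 on 38 to 204, Plin5 on 60 to 346 and Plin4 on 89 to 296, so small changes of these genes could not be measured closely.

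**Figure D2:**
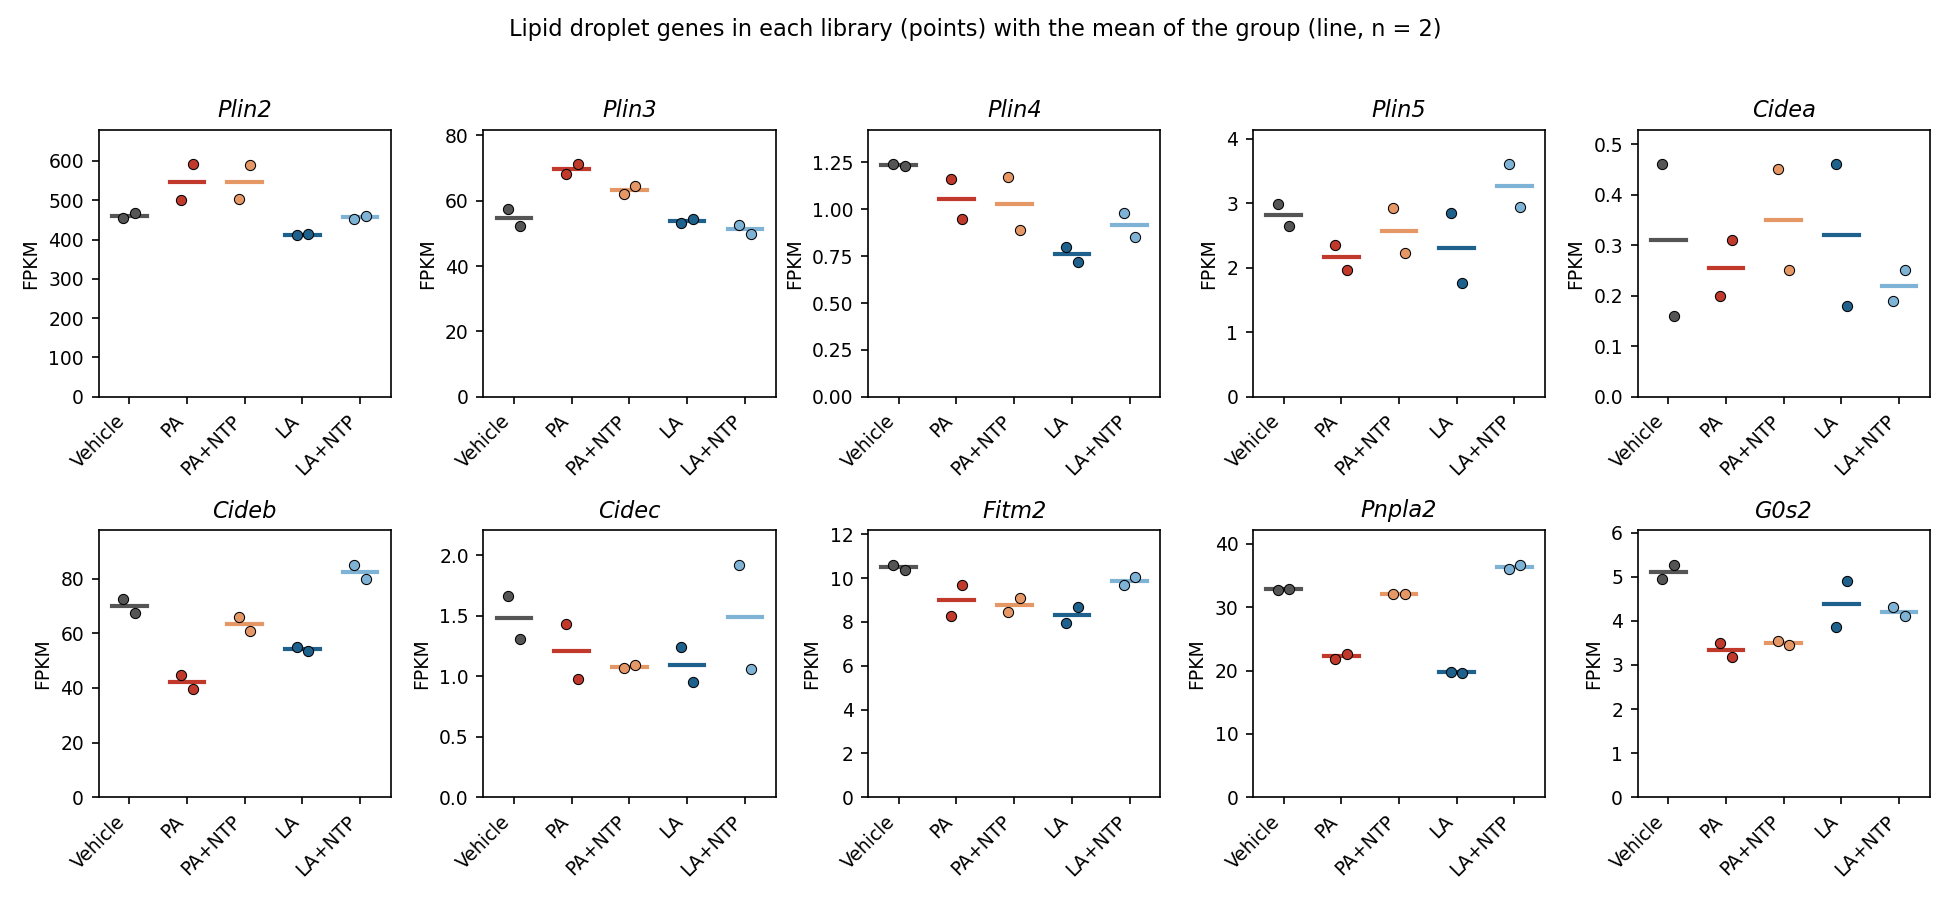
FPKM of each of the 10 genes in each library (points) and the mean of each group of 2 (lines), on axes that start at 0. Pnpla2 was 19.7 to 22.7 in the 4 PA and LA libraries and 32.0 to 36.7 in the other 6.

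Plin2 encodes the perilipin that coats droplets in most cells that are not adipocytes. It lies on the minus strand of chromosome 4 (GRCm38 chr4:86648386-86670060, NCBI gene 11520, 13 merged exons), and 5.05% of its 31-base words also occurred in another gene, with Gm12551 the gene that shared the most. Its FPKM was 455 and 466 in Vehicle, 501 and 591 in PA, 503 and 590.1 in PA+NTP, 412 and 413 in LA, and 453 and 460.3 in LA+NTP. All 4 libraries with palmitic acid lay above all 6 others, and both LA libraries lay below the rest. With PA, Plin2 rose by a log2 fold change of 0.28 (SE 0.0841, adjusted p 0.0142, range 0.000135 to 0.189). The test did not pass in 5 of the alternatives. Without PA 2, the library with 591, the change was 0.16 (adjusted p 0.189), without Vehicle 1 it was 0.26 (0.0857), without Vehicle 2 it was 0.29 (0.0588), and with limma on log2(FPKM + 1) or + 0.1 it was 0.24 in each (0.0602 and 0.058). With the GC trend removed it was larger, 0.41 (adjusted p 0.00259). These are bulk libraries, in which fewer cells of a type and less RNA per cell cannot be told apart. With LA the difference from Vehicle was -0.11 (SE 0.0841, adjusted p 0.305), and it was 0.01 with the GC trend removed.

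Plin3 encodes a perilipin that is soluble in the cytosol and moves onto young droplets. It sits on chromosome 17 (chr17:56277476-56292873, minus strand, gene 66905, 9 merged exons), in the same part of the chromosome as the adjacent genes Plin4 and Plin5. Its FPKM was 57.3 and 52.3 in Vehicle, 68.05 and 71.1 in PA, 62.1 and 64.6 in PA+NTP, 53.3 and 54.3 in LA, and 52.6 and 49.8 in LA+NTP. PA libraries were highest, PA+NTP libraries came next, and the other 6 lay below both. Plin3 rose with PA by 0.38 (SE 0.0645, adjusted p 0.000273, range 1.48e-06 to 0.00873), and by 0.46 with the GC trend removed. From PA to PA+NTP it fell by 0.19 (SE 0.0637, adjusted p 0.0223, range 0.00559 to 0.132). That fall did not pass without PA 2 (-0.17, adjusted p 0.12) or without PA+NTP 1 (-0.15, 0.132), nor with library-size scaling (-0.14, 0.0886), with limma on FPKM with either added constant (-0.13 and -0.14, 0.0861 and 0.0892), or when only these groups were fitted (-0.19, 0.0759). Removal of the GC trend gave -0.27 (0.00727). The LA values gave 0.02 against Vehicle (adjusted p 0.834) and -0.11 for LA+NTP against LA (0.156).

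The promoters of Plin2 and Plin3 are shown because these perilipins rose together with palmitic acid. They are the RefSeq sequences of build GRCm38.p6 from 250 bases before to 50 after the transcript start, both on the minus strand, at chr4:86670010-86670309 and chr17:56290462-56290761. The start used for Plin3 is internal, since it lies inside the interval given above for the gene and not at its upper end. Capitals mark matches on either strand to 6 motifs. These were TATAAA (the TATA box), CCAAT (the CCAAT box), GGGCGG (the GC box), CACGTG (an E-box), AGGTCA (the nuclear receptor word) and AGGTCANAGGTCA (its direct repeat, 2 such words with 1 base between them, which overlaps matches to the single word).
Plin2: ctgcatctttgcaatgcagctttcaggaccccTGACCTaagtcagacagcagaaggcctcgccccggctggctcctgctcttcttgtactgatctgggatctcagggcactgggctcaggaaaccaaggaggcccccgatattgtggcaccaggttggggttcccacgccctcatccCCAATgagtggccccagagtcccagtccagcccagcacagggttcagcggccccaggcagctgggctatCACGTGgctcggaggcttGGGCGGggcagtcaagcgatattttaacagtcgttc
Plin3: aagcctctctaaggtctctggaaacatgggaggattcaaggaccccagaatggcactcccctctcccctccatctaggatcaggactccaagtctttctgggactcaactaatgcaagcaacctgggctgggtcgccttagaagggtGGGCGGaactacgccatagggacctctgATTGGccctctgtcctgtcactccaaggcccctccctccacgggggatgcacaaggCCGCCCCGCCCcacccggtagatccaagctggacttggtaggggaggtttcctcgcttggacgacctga
Plin2 held 1 match each to the CCAAT box, the GC box, the E-box and the nuclear receptor word, and Plin3 held 1 to the CCAAT box and 3 to the GC box, of which a pair ran together. Of all 32851 promoters of this length, 13.6% held the TATA box, 37.4% the CCAAT box, 35.7% the GC box, 7.15% the E-box, 16.3% the nuclear receptor word and 0.0396% its direct repeat. A match is a description of the letters, not a site or a cause. GC content was 60.7% in the Plin2 promoter and 59.3% in that of Plin3, beside a median of 52.7% over all promoters.

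Plin4 and Plin5 are neighbours on the minus strand of chromosome 17 (chr17:56100591-56109803, gene 57435, and chr17:56111601-56117596, gene 66968), 1797 bases apart. PLIN5 links droplets to mitochondria in tissues that burn fat, and PLIN4 coats small nascent droplets, chiefly in adipocytes and muscle. Plin4 had an FPKM of 1.24 and 1.23 in Vehicle, 1.16 and 0.95 in PA, 1.17 and 0.89 in PA+NTP, 0.80 and 0.72 in LA, and 0.98 and 0.85 in LA+NTP. Both Vehicle libraries were above all others and both LA libraries below all others. With LA, Plin4 fell by 0.65 (SE 0.1806, adjusted p 0.00974, range 0.00195 to 0.169) and was called. The call was lost without LA 2 (-0.58, adjusted p 0.0632), with the GC trend removed (-0.37, 0.169) and, by its fold, with limma on log2(FPKM + 1) (-0.35, 0.0142), and its mean FPKM of 0.999 left it out of the analysis of genes with a mean of at least 1. Plin5 ranged from 1.76 in an LA library to 3.60 in an LA+NTP library, and no comparison of it passed the test. Its LA libraries differed as much as the groups, at 2.85 and 1.76. For LA+NTP against LA the value was 0.44 (adjusted p 0.111, range 0.016 to 0.678). It was 0.85 and called without LA 1 (0.016), 0.14 without LA 2 and -0.14 with the GC trend removed (0.678).

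Cideb encodes the CIDE protein of the liver, which is known for loading triglyceride onto very low density lipoprotein. The gene (chr14:55754050-55758458, minus strand, gene 12684, 4 merged exons) shares 1136 of its 1488 exon bases with Nop9 on the opposite strand, and 72.8% of its 31-base words occurred in Nop9 in the opposite sense. The sources do not state whether strand was kept in the libraries. If it was not, reads from the shared bases of Cideb and Nop9 cannot be told apart. Cideb had an FPKM of 72.7 and 67.5 in Vehicle, 44.8 and 39.6 in PA, 66.0 and 61.0 in PA+NTP, 55.0 and 53.6 in LA, and 85.0 and 79.7 in LA+NTP. No pair of groups overlapped, and their order from low to high was PA, LA, PA+NTP, Vehicle and LA+NTP. Relative to Vehicle, Cideb fell by 0.71 with PA (SE 0.0769, adjusted p 7.54e-06, range 2.21e-17 to 0.000349) and was called at 1.635-fold. Its fall with LA was 0.32 (SE 0.0747, adjusted p 0.00335, range 0.000153 to 0.17). NTP raised it by 0.54 over PA (SE 0.0762, adjusted p 5.95e-05, range 8.62e-11 to 0.00267) and by 0.56 over LA (SE 0.0731, adjusted p 2.1e-05, range 1.26e-12 to 0.00244), each just under the fold threshold. It passed that threshold without PA 1 in the former (0.62, adjusted p 0.000152) and without LA+NTP 2 in the latter (0.60, 0.000158), and with library-size scaling in both (0.60 and 0.60). With the GC trend removed the changes were -0.53 with PA (adjusted p 0.00014), -0.15 with LA (0.17), 0.37 for PA+NTP against PA (0.00204) and 0.35 for LA+NTP against LA (0.00244).

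Nop9, looked up for its overlap with Cideb after the values of Cideb were seen, had an FPKM of 37.6 and 32.7 in Vehicle, 24.3 and 24.5 in PA, 34.5 and 31.5 in PA+NTP, 26.0 and 26.0 in LA, and 40.4 and 41.2 in LA+NTP. It encodes a nucleolar protein of ribosome assembly. Its log2 fold changes had the signs of those of Cideb, at -0.49 with PA (adjusted p 7.02e-05), -0.39 with LA (0.000523), 0.38 for PA+NTP against PA (0.000542) and 0.61 for LA+NTP against LA (5.55e-06). After GC removal these were -0.27, -0.16, 0.14 and 0.32, of which those with PA and for LA+NTP against LA passed. Between PA and LA, Cideb differed by -0.39 (adjusted p 0.00525) and Nop9 by -0.11 (0.388). Between PA+NTP and LA+NTP, Cideb differed by -0.40 (0.00197) and Nop9 by -0.34 (0.00427). Differences between the genes were not tested.

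The Cideb promoter is shown because Cideb and Pnpla2 both passed as lower with each fatty acid and higher with NTP over each. That holds before GC removal, and after it both passed for LA+NTP against LA only. Between PA and LA their signs differed, at -0.39 for Cideb and 0.17 for Pnpla2 (adjusted p 0.0965, not passing). The window and build are the same (chr14:55758375-55758674, minus strand). Capitals mark the same motifs.
Cideb: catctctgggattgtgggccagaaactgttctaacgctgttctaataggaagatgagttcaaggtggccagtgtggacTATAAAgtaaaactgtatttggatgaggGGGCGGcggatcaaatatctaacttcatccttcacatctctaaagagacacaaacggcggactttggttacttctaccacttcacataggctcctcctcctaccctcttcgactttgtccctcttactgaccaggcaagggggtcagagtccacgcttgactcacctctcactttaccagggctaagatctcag
It held 1 match to the TATA box and 1 to the GC box, and its GC content of 48.0% was below the median of 52.7%.

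Cidec, which drives the merging of droplets into large ones in adipocytes, stayed between 0.95 in an LA library and 1.92 in an LA+NTP library (chr6:113424634-113435760, minus strand, gene 14311). Cidea, a gene of brown fat, stayed between 0.16 and 0.46 (chromosome 18, plus strand, gene 12683), with both of these extremes among the Vehicle libraries. Neither passed the test in any comparison. For Cidec the SE of the change with PA was 0.336 on the log2 scale, and for Cidea it was 0.7242, so changes of the size seen for Cideb would not have been detectable for Cidea at this depth.

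FITM2 is a protein of the endoplasmic reticulum that is needed for droplets to bud. Its gene (chr2:163466379-163472629, minus strand, gene 228859, 2 merged exons) overlaps an exon of 2310001K24Rik on the opposite strand by 227 bases. FPKM of Fitm2 was 10.6 and 10.4 in Vehicle, 8.27 and 9.69 in PA, 8.45 and 9.10 in PA+NTP, 7.96 and 8.66 in LA, and 9.67 and 10.1 in LA+NTP. Vehicle libraries were above all 8 others. Its fall with LA, 0.29 on the log2 scale (SE 0.1056, adjusted p 0.0403, range 0.016 to 0.227), had the highest adjusted p of the 20 changes that passed. It did not pass without Vehicle 1 (-0.27, adjusted p 0.151), Vehicle 2 (-0.31, 0.113), LA 1 (-0.22, 0.227), LA 2 (-0.34, 0.0595), LA+NTP 1 (-0.29, 0.0573) or LA+NTP 2 (-0.29, 0.0609). It also did not pass by DESeq2 (-0.29, 0.0845) or with the GC trend removed (-0.23, 0.164).

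Pnpla2 encodes adipose triglyceride lipase, and its gene is compact (chr7:141455198-141460743, plus strand, gene 66853, 11 merged exons, 350 bases from Cracr2b). Its FPKM was 32.8 and 32.9 in Vehicle, 21.8 and 22.7 in PA, 32.1 and 32.0 in PA+NTP, 19.7 and 19.7 in LA, and 36.0 and 36.7 in LA+NTP. The libraries of each group lay close together and no pair of groups overlapped. PA and LA libraries were low, and every library without an FFA or with NTP was above 32. Pnpla2 fell by 0.52 with PA (SE 0.0597, adjusted p 1.08e-05, range 7.91e-11 to 0.0748), 1.438-fold. With LA it fell by 0.69 (SE 0.0593, adjusted p 2.35e-06, range 1.93e-18 to 0.0063), which at 1.614-fold was called. NTP raised it by 0.47 over PA (SE 0.0591, adjusted p 2.5e-05, range 6.01e-09 to 0.435) and by 0.84 over LA (SE 0.0582, adjusted p 1.4e-07, range 5.86e-29 to 0.00123), the latter called at 1.795-fold. With NTP the level was near that of Vehicle, at -0.06 for PA+NTP (adjusted p 0.596) and 0.15 for LA+NTP (0.238). Pnpla2 transcripts are rich in GC, at 57.8%, and their level followed the trend of the libraries. With that trend removed the changes were -0.15 with PA (adjusted p 0.0748), -0.28 with LA (0.0063), 0.07 for PA+NTP against PA (0.435) and 0.33 for LA+NTP against LA (0.00123). The changes with LA and its NTP pretreatment thus passed the test in both analyses at different sizes, and those with PA passed in the analysis without GC removal.

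The Pnpla2 promoter, from the same source (chr7:141454938-141455237, plus strand), is shown for the same reason.
Pnpla2: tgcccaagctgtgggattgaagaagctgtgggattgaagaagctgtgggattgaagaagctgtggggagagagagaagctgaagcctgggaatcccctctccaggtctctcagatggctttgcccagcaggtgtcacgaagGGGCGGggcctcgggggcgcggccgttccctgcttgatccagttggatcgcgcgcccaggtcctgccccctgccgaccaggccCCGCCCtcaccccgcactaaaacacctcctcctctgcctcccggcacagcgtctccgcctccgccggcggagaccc
It held 2 matches to the GC box, and its GC content was 65.3%. RefSeq promoters were found for 9 of the 10 genes. The 10th was that of Cidea.

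G0s2 is a short gene of 2 exons (chr1:193272161-193273217, minus strand, gene 14373). Its FPKM was 4.96 and 5.27 in Vehicle, 3.50 and 3.19 in PA, 3.55 and 3.45 in PA+NTP, 3.86 and 4.91 in LA, and 4.31 and 4.11 in LA+NTP. All 4 libraries with palmitic acid were below the 6 others. G0s2 fell by 0.60 with PA (SE 0.2079, adjusted p 0.03, range 0.00357 to 0.287) and was called at 1.512-fold, just past the threshold. The call did not hold without Vehicle 1 (-0.63, adjusted p 0.0719), without Vehicle 2 (-0.55, 0.132), without PA 1 (-0.65, 0.0525) or without PA 2 (-0.51, 0.184). By DESeq2 the change was -0.59 (0.0689), and with the GC trend removed it was -0.31 (0.287). Limma on log2(FPKM + 1) gave -0.49 (0.00386), under the fold threshold. In PA+NTP against Vehicle the value was -0.57 (adjusted p 0.0858, range 0.0305 to 0.308), close to that with PA alone.

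FPKM of Pnpla2 over that of G0s2 was 6.607 and 6.233 in Vehicle, 6.24 and 7.103 in PA, and 5.106 and 4.008 in LA. In PA+NTP it was 9.051 and 9.281, and in LA+NTP 8.353 and 8.925, so every NTP library was above every other library. The ratio of the coat gene Plin2 to the lipase gene Pnpla2 was 13.9 and 14.2 in Vehicle, 23.0 and 26.1 in PA, and 20.9 and 21.0 in LA, against 15.7 and 18.4 in PA+NTP and 12.6 and 12.6 in LA+NTP. These ratios are descriptions chosen after the values were seen and were not tested. They were computed without removal of the GC trend, and GC content was 57.8% for Pnpla2, 56.4% for G0s2 and 52.1% for Plin2.

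**Figure D3:**
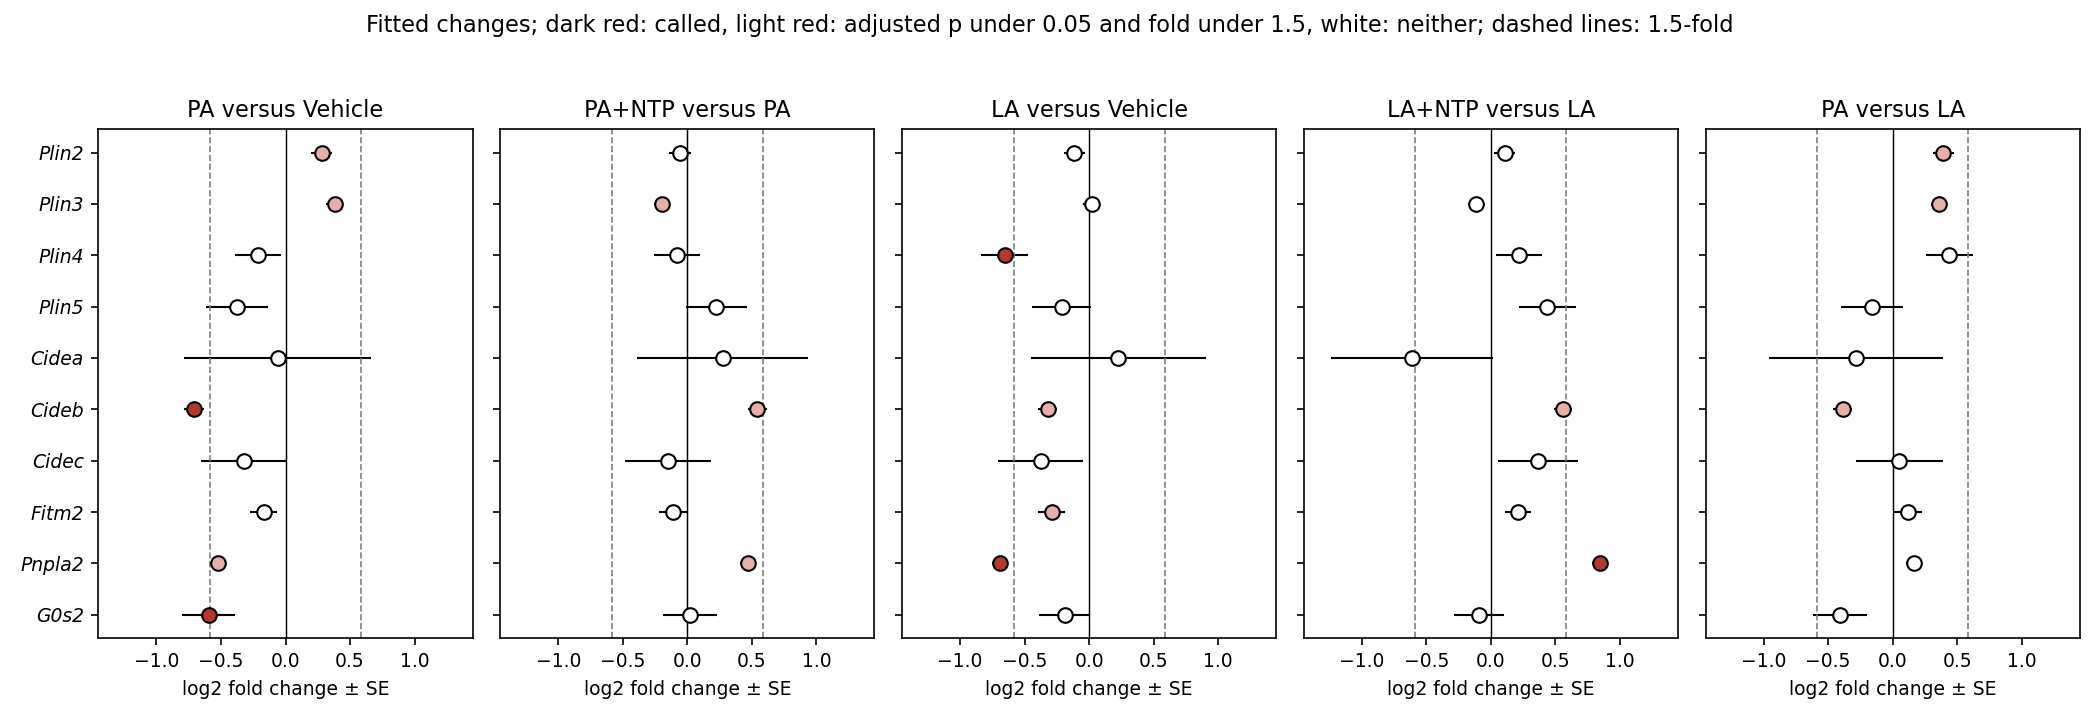
Log2 fold changes with their SE for the 10 genes in 5 comparisons. Called genes were Cideb and G0s2 with PA, Plin4 and Pnpla2 with LA, and Pnpla2 for LA+NTP against LA.

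What palmitic acid did was asked by PA against Vehicle. There 2 of the 10 genes were called, Cideb and G0s2, both lower, and 5 passed the adjusted p without a fold threshold. Over all tested genes 14.9% were called, 8.92% were called lower, and 45.5% passed without the fold threshold. The count of 5 of 10 was near that background. The median log2 fold change was -0.27 over the 10 genes and -0.01 over all tested genes, and with the GC trend removed it was 0.00 over the 10 and 0.04 over all. Plin2 and Plin3 rose, and Cideb, Pnpla2 and G0s2 fell.

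LA against Vehicle asked the same of linoleic acid and used the same Vehicle libraries. The 2 called genes were Plin4 and Pnpla2, both lower, and 4 of 10 passed without the fold threshold. Of all tested genes 10.6% were called, 7.11% lower, and 41.3% passed without the fold threshold, so the share of the set was again near the background. The median was -0.25 in the set and -0.01 over all genes, and -0.03 and 0.03 with the GC trend removed. For the 5 genes that passed with PA, the values were 0.28 with PA and -0.11 with LA for Plin2, 0.38 and 0.02 for Plin3, -0.71 and -0.32 for Cideb, -0.52 and -0.69 for Pnpla2, and -0.60 and -0.19 for G0s2.

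NTP was asked about by PA+NTP against PA and LA+NTP against LA, which share libraries with the comparisons above. In PA+NTP against PA, edgeR called 0 of the 10 genes and DESeq2 called 0. By unadjusted p under 0.05 there were 3, Plin3, Cideb and Pnpla2, and the same 3 passed after adjustment. Of all 14097 genes 7211 had an unadjusted p under 0.05. The background was 13.9% called and 44.7% passing without the fold threshold. For LA+NTP against LA, 1 gene was called, Pnpla2, which was higher, and 2 passed, Pnpla2 and Cideb. Of all genes 19.3% were called, 11.7% higher, and 51.5% passed, so the shares of the set were below the background. Medians were -0.02 in the set for PA+NTP against PA and 0.21 for LA+NTP against LA, beside 0.01 over all genes in each. After GC removal the set medians were -0.20 and -0.09, beside -0.03 over all genes in each, so the sign turned for LA+NTP against LA. Whether NTP acted differently under the fatty acids was tested by the difference of those changes. For Pnpla2 it was -0.38 (SE 0.0828, unadjusted p 0.000447, adjusted p 0.525, range 0.0857 to 0.999), a smaller rise under PA. This did not pass. EdgeR called 0 of the 14097 genes (0%) and 0 of the 10, with 1029 of all genes and 2 of the 10, Pnpla2 and Fitm2, under an unadjusted p of 0.05. DESeq2 called 5 genes and 0 of the set.

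Pretreated cells were also set against Vehicle. For PA+NTP, edgeR called 0 of the 10 genes and DESeq2 called 0, with 5 under an unadjusted p of 0.05, as 3476 of all 14097 genes were, and 2.85% of all genes were called. For LA+NTP the counts were 0 and 0, with 3 of the set and 2014 of all genes under an unadjusted p of 0.05, and 0.0922% of all genes called. None of the 10 passed the adjusted p in either. Plin2 had a value of 0.22 in PA+NTP (adjusted p 0.111, range 0.00752 to 0.624) and Plin3 0.19 (0.0833, range 0.044 to 0.473), beside 0.28 and 0.38 with PA alone.

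Direct comparison of the fatty acids bears the limit that their doses differed, 200 µM palmitic acid against 12 µM linoleic acid. In PA against LA, 0 of the 10 genes were called by edgeR and 0 by DESeq2, 5 were under an unadjusted p of 0.05, and 3 passed the adjusted p. The background was 3.23% called and 11.1% passing, so 3 of 10 passing was above the share of all genes. Of all 14097 genes 3492 were under an unadjusted p of 0.05. Plin2 was higher with PA by 0.39 (SE 0.0841, adjusted p 0.00858, range 7.15e-08 to 0.117) and Plin3 by 0.36 (SE 0.0642, adjusted p 0.00257, range 1.49e-05 to 0.0417). Cideb was lower by 0.39 (-0.39, SE 0.0769, adjusted p 0.00525, range 4.77e-05 to 0.101). Plin2 did not pass without PA 2 (0.27, adjusted p 0.117), LA 1 (0.39, 0.0691) or LA 2 (0.39, 0.0603), and Cideb did not without PA 2 (-0.29, 0.101). PA and LA libraries had GC correlations of the same sign, and removal of the trend left these values at 0.40, 0.37 and -0.38. With NTP in both groups, edgeR and DESeq2 each called 0 of the 10, 4 were under an unadjusted p of 0.05 and 3 passed. Among all 14097 genes 3.82% were called, 14.8% passed and 3965 were under an unadjusted p of 0.05. Plin3 was higher by 0.28 (adjusted p 0.0089, range 0.00128 to 0.103), Cideb differed by -0.40 (0.00197, range 2.4e-06 to 0.0303) and Pnpla2 by -0.21 (0.0226, range 0.018 to 0.182). Plin3 did not pass without PA+NTP 2 (0.23, 0.0548) or LA+NTP 2 (0.24, 0.103). Pnpla2 did not without PA+NTP 1 (-0.18, 0.0864), LA+NTP 1 (-0.23, 0.107) or LA+NTP 2 (-0.20, 0.147), nor when only these groups were fitted (-0.21, 0.0707). With the GC trend removed Plin3 was at 0.30 (0.00655) and Cideb at -0.36 (0.00414), and Pnpla2 did not pass (-0.13, 0.182).

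**Figure D4:**
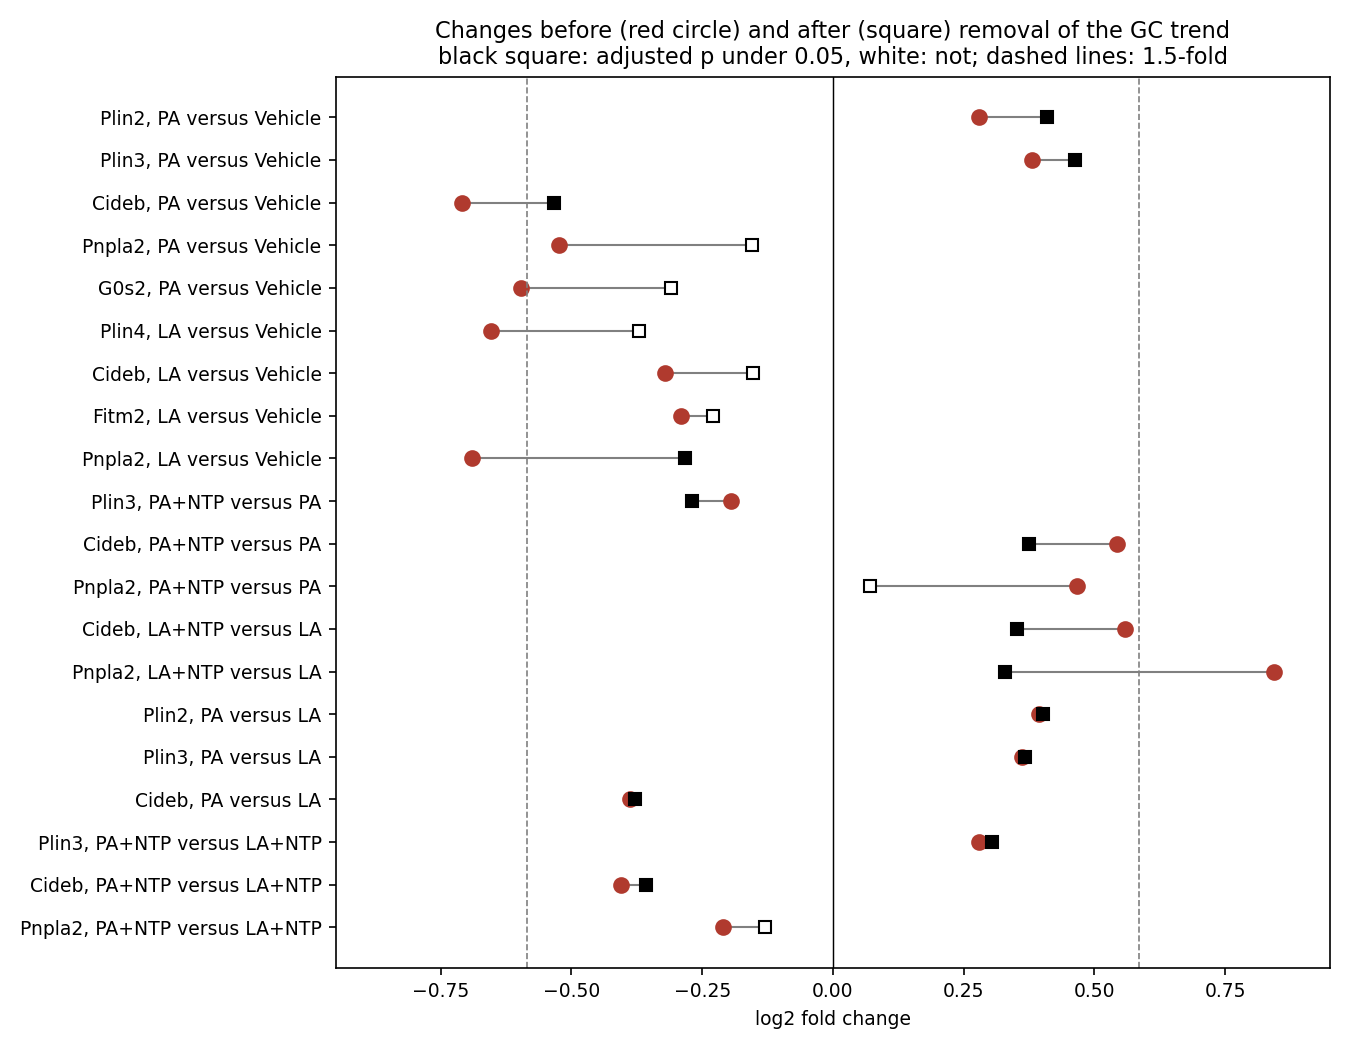
Log2 fold changes of the 20 pairs of gene and comparison that passed the adjusted p, before (red circles) and after (squares) the GC trend was removed. Of these 13 passed after removal and 0 were past the fold of 1.5 with it.

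Over the 9 comparisons, 5 of the 90 pairs of gene and comparison were called. Among all tested genes the share called was 0% to 19.3% by comparison, so the count of 5 is not a result about the set. Of the 90 pairs, 20 passed the adjusted p. All 20 kept their sign in every alternative that gave a value. In 8 the adjusted p stayed under 0.05 throughout. These were Plin3 with PA and between PA and LA, Cideb with PA, with NTP over each fatty acid and between the NTP groups, and Pnpla2 with LA and for LA+NTP against LA. With the GC trend removed, edgeR called 0 of the pairs, 13 of the 20 still passed the adjusted p, and 14 passed in all, the addition being Plin3 for LA+NTP against LA (-0.21, adjusted p 0.0298, range 0.0246 to 0.477). Among all tested genes, removal took the number called from 2103 to 1202 with PA, from 1500 to 455 with LA, from 1953 to 859 for PA+NTP against PA and from 2718 to 816 for LA+NTP against LA. Between PA and LA it was 455 before and 440 after.

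Other genes of droplet turnover were read from lists. Of 17 neutral lipid hydrolases and their cofactors, 2 were called higher and 1 lower with PA (list median -0.16). Ces2c, a carboxylesterase gene, rose by 1.46 (SE 0.0884, adjusted p 7.63e-08), from an FPKM of 11.1 and 9.98 in Vehicle to 26.9 and 29.6 in PA, and stayed at 29.9 and 27.7 in PA+NTP. Hilpda, whose product also inhibits adipose triglyceride lipase, rose by 0.64 (adjusted p 0.00446). Mgll, the monoacylglycerol lipase gene, fell by 0.68 (0.000909). With the GC trend removed these changes were 1.48, 0.84 and -0.41. With LA 0 were called higher and 1 lower (median 0.06), Lipe, the gene of hormone-sensitive lipase, at -0.73 (0.00253) and -0.30 with the trend removed, which did not pass. For PA+NTP against PA edgeR and DESeq2 each called 0 of the 17, with 4 under an unadjusted p of 0.05 (median -0.02), and for LA+NTP against LA 2 were higher and 0 lower (median 0.15), Lipe at 0.75 (adjusted p 0.00103) and Pnpla3 at 1.67 (0.00715). With the trend removed these were 0.21 and 1.12, and neither passed. Pnpla3 was under an FPKM of 0.22 in every library. Between PA and LA 2 of the 17 were called higher and 4 lower with PA, before and after removal of the trend. Of all tested genes 3.23% were called in that comparison before removal. Lipe is also on the adipocyte list, as is Plin1 of the further droplet genes, and Hnf4a is on both the regulator and hepatocyte lists.

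Of 20 further droplet genes tested, Rab18, a small GTPase gene, was called in all 4 treatment comparisons, at 0.74 with PA, 0.80 with LA, -0.86 for PA+NTP against PA and -0.82 for LA+NTP against LA. Its FPKM was 52.8 and 57.9 in Vehicle, 89.9 and 91.2 in PA, 51.2 and 52.8 in PA+NTP, 94.1 and 92.2 in LA, and 56.6 and 52.0 in LA+NTP. Rab18 was thus high in the libraries in which Pnpla2 was low, in a transcript with a GC content of 39.8%. With the trend removed the values were 0.37, 0.39, -0.48 and -0.33, and all 4 passed the adjusted p. Besides Rab18, Mettl7b was called lower with PA (-0.73) and Fitm1, the relative of Fitm2, higher for LA+NTP against LA (1.22). With the trend removed Mettl7b was at -0.52, and Fitm1 at 0.54 did not pass. The list then had 2 genes called lower with PA and 1 called higher for LA+NTP against LA. By edgeR after the removal 0 genes were called with LA and 0 for PA+NTP against PA, where before it 8 and 8 had an unadjusted p under 0.05 and DESeq2 called 1 and 1. List medians were -0.14 with PA, 0.03 with LA, -0.07 for PA+NTP against PA and 0.09 for LA+NTP against LA.

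Among 16 regulators of these genes, 1 was called higher and 2 lower with PA, 0 and 3 with LA, 3 and 0 for PA+NTP against PA, and 4 and 0 for LA+NTP against LA. The medians were -0.15, -0.11, 0.08 and 0.13. Of all tested genes 14.9%, 10.6%, 13.9% and 19.3% were called in these comparisons. Under an unadjusted p of 0.05 were 7326, 6872, 7211 and 8001 of all 14097 genes. The same shares and numbers stand beside the counts of the other lists in these 4 comparisons. Once the GC trend was removed, 1 regulator was called higher for PA+NTP against PA, and 0 were called in either direction in the other 3 comparisons. Mlxipl, which encodes the carbohydrate response factor ChREBP, fell with LA (-0.75) and rose with NTP over PA (1.03) and over LA (0.92). Esrra was -0.68 with PA and -0.71 with LA, and 0.73 and 0.80 with NTP over each. Ppard was -0.67 with LA, and 0.76 and 0.83 with NTP. Esrra has a GC content of 61.8%, and with the trend removed its values were -0.14, -0.12, 0.18 and 0.06, none of which passed. Ppard was then at -0.16 with LA, 0.27 over PA and 0.19 over LA, and passed over PA only. Mlxipl had -0.42, 0.71 and 0.51 and passed each time. The others called with PA, Hnf4a (-0.73) and Sirt1 (0.61), still passed after removal, at -0.52 (adjusted p 4.93e-05) and 0.35 (0.00398). Pparg, a known activator of Plin2 and Cidec, was lower in PA+NTP than in Vehicle (-0.90, adjusted p 0.000108). Its FPKM was 11.39 and 10.98 in Vehicle, 8.02 and 7.72 in PA, and 6.32 and 5.89 in PA+NTP. In LA it was 11.46 and 11.43, and in LA+NTP 11.82 and 9.80.

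Other cells that hold lipid were also looked for. All 10 markers of stellate cells, which store vitamin A esters in droplets, were listed, with Dcn the most abundant at a mean FPKM of 13.1. Lrat, Reln, Hand2, Pdgfrb and Ngfr were under 1 in every library. Their summed FPKM was 31.75 and 31.95 in Vehicle, 25.4 and 25.6 in PA, 29.5 and 29.6 in PA+NTP, 29.75 and 30.0 in LA, and 33.8 and 33.8 in LA+NTP. With PA 5 were called lower and 0 higher (median -0.63), with LA 1 and 0 (-0.33), and with NTP 2 were called higher and 0 lower over PA (0.32) and over LA (0.56). GC removal left 2 called lower with PA and 0 in the other 3 comparisons. Of the hepatocyte markers 3 were called lower with PA, Apoa1, Ttr and Hnf4a, and 1 higher for LA+NTP against LA, Apoa1. With the trend removed these counts were 2 and 0. Between the fatty acids, 2 hepatocyte markers were called lower in PA than in LA (list median -0.37). In PA+NTP against LA+NTP 5 were called lower (-0.43), and 2 and 4 were after removal. Of all tested genes 3.23% and 3.82% were called in these comparisons before removal. In both marker sums, as for Cideb, PA was lowest and LA+NTP highest, and the part of cell composition in the changes of the droplet genes was not tested.

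Kupffer cell and macrophage markers were all 9 listed, with Cd68 the most abundant at 121.56 to 287.31 and Clec4f, Vsig4, Timd4 and Csf1r under 1 everywhere. Without Cd68 their summed FPKM was 4.86 to 9.55. With PA 1 was called higher (Marco, 2.46) and 1 lower (Cd5l, -1.11), and with LA 1 was lower (Cd68, -0.67). For PA+NTP against PA 1 was called higher (Cd5l, 0.65). After GC removal Cd68 was at -0.48 with LA, and Cd5l at 0.55 for PA+NTP against PA did not pass. For LA+NTP against LA edgeR and DESeq2 each called 0, with 2 under an unadjusted p of 0.05. The 7 sinusoidal endothelial markers summed to between 30.4 in a PA library and 43.9 in an LA+NTP library, with Cdh5 the most abundant. In the treatment comparisons edgeR and DESeq2 each called 0 of them. Under an unadjusted p of 0.05 were 4 with PA, 3 with LA, 2 for PA+NTP against PA and 3 for LA+NTP against LA. Among all 14097 genes 7326, 6872, 7211 and 8001 were, in that order. Of 6 cholangiocyte markers Krt19, Krt7, Epcam and Cftr were under 1 in every library, and Spp1 was the most abundant at a mean of 596.4. Krt19 was called lower with PA (-1.22, and -0.87 and not passing with the GC trend removed) and Sox9 higher for PA+NTP against PA (0.66, and 0.67 with the trend removed). DESeq2 called 0 of these markers with PA, where 3 had an unadjusted p under 0.05 by edgeR, and after GC removal 2 were called higher for PA+NTP against PA. None of 5 neutrophil markers was listed in any library.

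The genes most like a droplet gene in log2 CPM (scaled counts) over the 10 libraries were taken from 8300 genes with a mean FPKM of at least 5, as a description. For Pnpla2 these were Mfge8 (Pearson r 0.997, Spearman rho 1.000), Fasn (r 0.994, rho 0.939) and Adrm1 (r 0.993, rho 0.903), with GC contents of 57.5%, 57.9% and 60.3%, near the 57.8% of Pnpla2. FPKM of Fasn, the fatty acid synthase gene, was 10.5 and 10.3 in Vehicle, 6.83 and 7.04 in PA, 10.1 and 10.7 in PA+NTP, 6.38 and 6.47 in LA, and 12.0 and 11.7 in LA+NTP. For Plin2 they were Ran (r 0.963, rho 0.842), Tollip (r 0.960, rho 0.964) and Laptm4b (r 0.959, rho 0.879). All these points share their libraries, depths and base composition, and the part of these in the likeness was not tested.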

How the data were processed

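Gene tables of the 10 libraries were read as the authors deposited them, with an expected count and an FPKM for each gene (the deposited units). The authors aligned reads to mm10 with HISAT and Bowtie2 and quantified genes with RSEM, per the labels. Genes absent from a table were set to 0. Symbols, positions and GC content came from GRCm38 annotation (GC for 99.21% of genes). Rounded expected counts were fitted with edgeR 4.0.16 in R 4.3.3 (TMM scaling, filterByExpr, quasi-likelihood F test, 5 groups as a single factor), with Benjamini-Hochberg adjustment over 14097 genes. FPKM was used to compare levels. For GC removal, a loess trend (span 0.4) of each library's deviation was subtracted as an offset.

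The comparisons were repeated by DESeq2 1.42.0, with scaling by library size alone, with every gene kept, at a mean FPKM of at least 1, with no fold threshold, by limma 3.58.1 on log2 FPKM with 1 or 0.1 added, on only the groups compared, with a replicate block, with GC removal, with both together, and without each library in turn. The lone library of a group was then assumed to vary like the other groups.

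Named were all 10 genes of the set, from other lists at most the 4 with the largest change among those called in a comparison, and the 3 genes most like Plin2 and Pnpla2. Members and lists were chosen with earlier results of these data known. The NTP dose is from the study's methods. The NOISeq test of the study was not used here, and protein sequences were not analysed here. The counts of a further gene list are not reported here.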

Additional observations from a re-analysis of the deposited data

Results flagged for a closer look

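Levels of Plin2 lay on opposite sides of Vehicle under the fatty acids. Both PA libraries, at an FPKM of 501 and 591, were above both Vehicle libraries at 455 and 466, and both LA libraries, at 412 and 413, were below them. The difference of PA from LA was tested with edgeR and was 0.39 on the log2 scale (SE 0.0841, adjusted p 0.00858, range over the alternatives 7.15e-08 to 0.117). It was 0.40 (adjusted p 0.00916) with the GC trend removed. The adjusted p was over 0.05 without PA 2 (0.27, 0.117), LA 1 (0.39, 0.0691) or LA 2 (0.39, 0.0603). The difference of LA from Vehicle alone did not pass (-0.11, adjusted p 0.305, range 0.0731 to 0.965), and with the GC trend removed it was 0.01 (0.965), on the same side as PA. Doses differed, at 200 µM for palmitic acid and 12 µM for linoleic acid, so fatty acid and dose cannot be told apart. Markers of cell types also differed between PA and LA. Of the macrophage markers Marco (2.34, adjusted p 0.000369) and Cd68 (0.78, 5.09e-05) were called higher in PA and Cd5l lower (-1.11, 0.00283). Of the hepatocyte markers Apoa1 (-1.44, 3.21e-05) and Ttr (-1.04, 0.000743) were called lower. Their part in the difference of Plin2 was not tested.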

How the results depend on the processing

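Counts of called droplet genes depended on the fold threshold and on the GC trend. With PA, 2 were called, against 1 by DESeq2, 1 with limma on log2(FPKM + 1), 5 with no fold threshold, and 0 with the GC trend removed or with the replicate block and GC removal together. Leaving out a library gave 1 to 2, with 1 without Vehicle 1, Vehicle 2, PA 1 or PA 2. With LA, 2 were called, against 1 at a mean FPKM of at least 1, 1 with limma on log2(FPKM + 1), 4 with no fold threshold, and 0 under both GC removals. Leaving out a library gave 1 to 2, with 1 without LA 2. The fall to 1 at a mean FPKM of at least 1 came from Plin4, which that filter left out.

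For PA+NTP against PA, 0 were called by edgeR and 0 by DESeq2, with 3 under an unadjusted p of 0.05, against 1 with library-size scaling, 1 with limma on log2(FPKM + 0.1) and 3 with no fold threshold. Leaving out a library gave 0 to 1, with 1 without PA 1. For LA+NTP against LA, 1 was called, against 2 with library-size scaling, 2 with limma on FPKM with either added constant, 2 with no fold threshold, and 0 under both GC removals. Leaving out a library gave 1 to 2, with 2 without LA 1 or LA+NTP 2. PA against LA and PA+NTP against LA+NTP had 0 called, and 3 in each with no fold threshold. The cause was not tested, except that dropping the fold threshold counts all genes past the adjusted p.

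With the replicate block the counts were 2 with PA, 2 with LA, 0 for PA+NTP against PA, 1 for LA+NTP against LA and 0 in the other 5 comparisons, as without it, and no call of a gene changed. The block used the numbers in the sample titles, which differ in part from those of the deposited tables. These numbers were not shown to pair, since correlations of residuals between groups were -0.0848 to 0.129. Plin2 was lower, and Cideb higher, in library 1 than in library 2 of every group. With the block and GC removal together, Plin2 passed the adjusted p for PA+NTP against Vehicle (0.23, 0.0416) and against LA+NTP (0.27, 0.0151). A block by the numbers of the tables was not run.

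Of 1868 values of single genes under the 21 alternatives, 1755 kept direction and side of the threshold, 23 became called, 18 lost a call, and 72 of uncalled genes changed sign, of which 14 were of Cidea, 12 of Plin5 and 11 of Plin2. Of called values 0 changed sign. Plin4 and Cidea had no value at a mean FPKM of at least 1, and Cidea none in 4 further cases where the filter on counts dropped it. No scaling moved the median of all genes by over 0.1. Low counts limited Cidea, at 3 to 17 a library.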
